A study of Mus musculus with 12 samples.

Results

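The bombesin-like peptides and their receptors form a family of 5 genes in the mouse. Grp and Nmb encode the precursors of gastrin-releasing peptide and neuromedin B, and Grpr, Nmbr and Brs3 encode the receptors for gastrin-releasing peptide, for neuromedin B and the orphan bombesin-like receptor 3. All 5 were among the 16640 genes measured by bulk RNA sequencing of the arcuate nucleus (ARC), a part of the mediobasal hypothalamus, in 12 libraries from female mice. They were taken as a family of ligands and receptors, and Grp was also taken for its pattern in these libraries, since it is high in mutants on chow and extreme in 1 of them. Its values are therefore given as a description, with no test.

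Bombesin-like peptides were first known from amphibian skin, and their mammalian forms act as neuropeptides and gut peptides. GRPR, NMBR and BRS3 are G-protein-coupled receptors that signal mainly through Gq, which activates phospholipase C, releases calcium from internal stores and activates protein kinase C. In the nervous system gastrin-releasing peptide and its receptor are best known for itch transmission in the spinal cord and for their place in the circadian circuit of the suprachiasmatic nucleus. Neuromedin B is linked to sighing, to smooth muscle contraction and to feeding. BRS3 has no established natural ligand in mammals, does not bind gastrin-releasing peptide or neuromedin B with high affinity, and is known in the hypothalamus for its part in energy balance and body temperature.

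Control females carried loxP-flanked Esr1, the gene for oestrogen receptor alpha (Esr1fl/fl). In mutant females (Esr1Nkx2-1Cre) the floxed alleles were combined with a Cre recombinase driven by Nkx2-1. Nkx2-1 is active in the developing ventral hypothalamus as well as in other tissues, so the deletion is neither restricted to the ARC nor to 1 type of neuron. Each genotype was fed standard chow or a high-fat diet (HFD) for 17 weeks, up to an age of 27 weeks. There were 3 control and 4 mutant libraries on chow, and 2 control and 3 mutant libraries on HFD. The tissue was microdissected, so neighbouring nuclei and the pars tuberalis may be present. Levels are the deposited abundance signal, which is scaled for gene length and depth and lies near the scale of TPM (transcripts scaled to a fixed total). In such bulk tissue fewer cells of a type and less RNA per cell cannot be told apart.

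The deleted gene was examined first. The Esr1 signal was 17.8, 7.29 and 19.8 in control chow, 6.05, 3.15, 1.93 and 1.65 in mutant chow, 15.3 and 22.4 in control HFD, and 10.7, 16.6 and 11.9 in the libraries labelled mutant HFD. The mutant chow mean was thus 21.4% of control chow, whereas the libraries labelled mutant HFD averaged 69.4% of control HFD, and 2 of those 3 were below both control libraries on the same diet. The labelled deletion is therefore not plain on HFD, and directions given for those 3 libraries rest on their label. Mutant chow replicate 3 stood apart, with 1768 genes listed at 0 against 201 to 1019 in the others, and a median Spearman correlation across genes of 0.908 with the other libraries against 0.933 to 0.959. It held the highest value of all libraries for 19.6% of the genes tested. The differences of the members between the chow groups are therefore also given without it. Control chow replicate 2 had the largest summed signal over all genes, 1254999 against 922172 to 1033520 in the others. Its median correlation was 0.933, and it held the highest value for 16.3% of the genes tested.

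Positions are on GRCm38. Nmb (ENSMUSG00000025723) is on chromosome 7, from 80902227 to 80905076 on the minus strand, and overlaps Sec11a, a signal peptidase gene annotated on the same strand. Grpr (ENSMUSG00000031364; 163513904 to 163549677, minus strand) and Brs3 (ENSMUSG00000031130; 57043074 to 57048758, plus strand) are both on chromosome X and overlap no other gene. Nmbr (ENSMUSG00000019865) is on chromosome 10, from 14705591 to 14770850 on the plus strand, and overlaps 3 genes on the opposite strand. The use of strand in counting was not stated, so reads of Nmbr and of the genes it overlaps may not have been separated. Nmb and Sec11a share a strand, so strand alone would not separate reads from where they overlap.

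Nmb and Nmbr are the genes of a peptide and its own receptor, so the 250 bases upstream of each RefSeq start (GRCm38.p6) are shown. Both had their highest signal in mutant chow replicate 3, which held the highest value for 19.6% of the genes tested. The capitals mark GC boxes (GGGCGG), the sequence known to bind SP1-type factors. The window of Nmb is chr7:80905063-80905312 on the minus strand, and its end reaches into the first exon that GENCODE annotates. The window of Nmbr is chr10:14759697-14759946 on the plus strand, which lies in an intron of longer annotated transcripts and upstream of the start of the shorter ones.
Nmb: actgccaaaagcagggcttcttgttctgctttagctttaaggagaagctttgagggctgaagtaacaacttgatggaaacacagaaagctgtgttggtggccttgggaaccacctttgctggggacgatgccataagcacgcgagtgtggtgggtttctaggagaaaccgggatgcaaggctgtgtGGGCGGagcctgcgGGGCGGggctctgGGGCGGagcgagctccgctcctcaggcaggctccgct
Nmbr: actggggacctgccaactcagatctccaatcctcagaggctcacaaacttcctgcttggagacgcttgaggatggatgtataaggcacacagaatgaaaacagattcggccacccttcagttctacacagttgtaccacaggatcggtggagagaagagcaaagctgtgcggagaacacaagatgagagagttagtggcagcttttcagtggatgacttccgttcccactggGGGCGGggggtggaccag
The Nmb window held 3 GC boxes, which begin 64, 50 and 37 bases before the start, and the Nmbr window held 1, which begins 18 bases before it. A GC box on either strand occurred in 32.7% of the 32851 mouse promoter windows of the same length. Neither window held the half-site of an oestrogen response element (GGTCA, in 35.2% of all windows), a cyclic AMP response element (TGACGTCA, in 1.55%) or its half-site (TGACG, in 17.8%), or a TATA box (TATAAA, in 12.4%), all searched on both strands. TGACG is contained in TGACGTCA. The windows of Grpr and Brs3 were searched too and are not shown. The Grpr window held only a TGACG, which begins 80 bases before the start, and the Brs3 window held no match. These matches describe letters in a window and are not binding sites.

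Grp, the gene for gastrin-releasing peptide, was the member with the widest range. The gene (ENSMUSG00000024517) is on chromosome 18, from 65872820 to 65886596 on the plus strand, and overlaps an annotated antisense gene, whose reads may not have been separated from its own. The 4 mutant chow libraries, in replicate order, had a Grp signal of 26.5, 28.0, 121 and 35.8, and the 3 control chow libraries had 2.13, 11.7 and 4.92. Among the HFD libraries the signal was 3.45, 3.97 and 3.01 for those labelled mutant and 4.27 and 2.26 for control. Every mutant chow library was above every other library, and the other 8 lay between 2.13 and 11.7. Of all genes tested, 2.54% were likewise higher without overlap in mutant than in control chow, and 4.88% were lower without overlap in mutant HFD than in mutant chow, and Grp was chosen for this pattern. The 4 mutant chow libraries were also the 4 with the lowest Esr1.

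Mutant chow had a mean Grp signal of 52.9 ± 45.8 (SD, n = 4), and control chow one of 6.26 ± 4.94 (SD, n = 3). Mutant HFD averaged 3.47 ± 0.480 (SD, n = 3) and control HFD 3.26 ± 1.42 (SD, n = 2). The mutant chow mean was 8.45-fold the control chow mean, and the mutant HFD mean was 6.57% of the mutant chow mean. On HFD the ratio of mutant to control was 1.06. Replicate 3 carried much of the mutant chow spread, with a coefficient of variation of 86.5% in that group. Without it the mean was 30.1 ± 4.98 (SD, n = 3), which was 4.81-fold the control chow mean, and the mutant HFD mean was 11.5% of it. The 3 remaining mutant chow libraries differed little from one another and none came near the highest control.

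**Figure D1:**
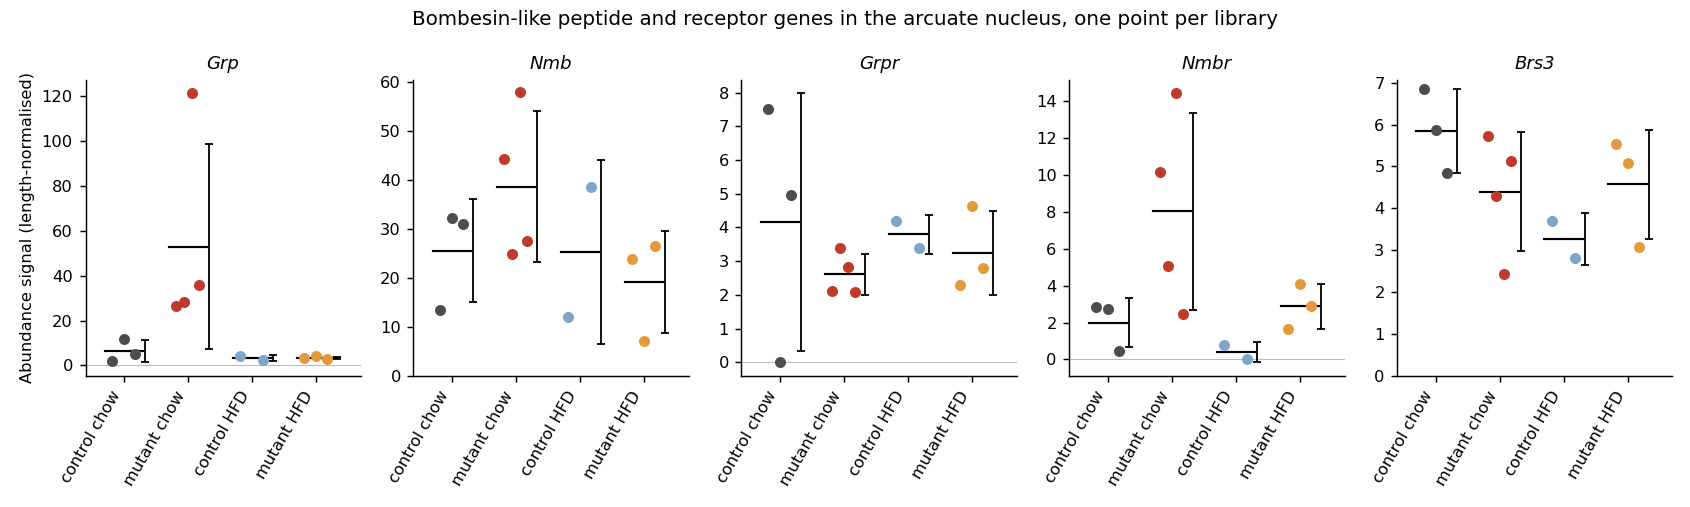
Abundance signal (length-normalised, linear axis) of the 5 members in each of the 12 libraries, 1 point per library, with the group mean (horizontal line) and SD (vertical bar); the vertical axes differ between genes. Grp in mutant chow lies between 26.5 and 121 and above all other libraries, whereas the groups of Nmb and Grpr overlap in every comparison.

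Ccn3, Fst and Penk encode secreted proteins or a peptide precursor, were named with Grp in the study and are set beside it library by library. Ccn3, a matricellular protein gene, was 7.83, 10.001 and 11.9 in control chow and 139, 46.5, 106 and 83.5 in mutant chow. Fst, the gene for the activin-binding protein follistatin, was 1.48, 1.45 and 0.552 in control chow and 22.3, 9.19, 33.2 and 13.3 in mutant chow. Penk, the proenkephalin gene, was 232, 340 and 319 in control chow and 659, 568, 938 and 847 in mutant chow. Replicate 3 was thus the highest mutant chow library for Grp, Fst and Penk, and replicate 1 was the highest for Ccn3. All 4 genes lay in their control ranges or near them on HFD, where the libraries labelled mutant HFD had at most 9.01 for Ccn3, 1.53 for Fst, 332 for Penk and 3.97 for Grp. The 4 genes were chosen on these libraries, so their likeness is no independent evidence of a direction.

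Markers of other cell types and regions were read beside Grp. The summed signal of 6 microglia markers (Cx3cr1, P2ry12, Tmem119, Csf1r, Aif1 and Ctss, none listed at 0 in any library) was 179 to 246 in control chow, 316 to 366 in mutant chow, 206 to 216 in control HFD and 184 to 247 in mutant HFD. It was the only one of the 9 marker sums whose mutant chow range overlapped no other group, as was also so for Grp. Of single genes tested, 2.54% were higher without overlap in mutant than in control chow. In mutant HFD 4.88% were lower without overlap than in mutant chow. All 6 markers had a positive log2 difference between the chow groups, with a median of 0.46, and all 6 had a negative one between the diets in mutants, with a median of -0.44. None of the 6 passed the limma test in these comparisons after Benjamini-Hochberg adjustment over all 15801 genes tested. An unadjusted p under 0.05 was held by 3 of 6 in each. Of all genes tested 4.34% held one on chow and 5.37% between the diets in mutants. Ctss, a lysosomal protease gene, had the largest difference on chow at 0.78 ± 0.19 (SE, adjusted p = 0.803). The part of microglia in the difference of Grp was not tested.

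The suprachiasmatic nucleus is a neighbouring site of Grp expression. The summed signal of its 8 markers was 144 to 383 in control chow, 120 to 3101 in mutant chow, 261 to 288 in control HFD and 729 to 2608 in mutant HFD. The sum was mostly Avp, the vasopressin gene, which was 677 to 2553 in mutant HFD. The highest sum was in mutant chow replicate 2, where Grp was 28.0. Vip, the gene for vasoactive intestinal peptide and a defining marker of that nucleus, was highest in mutant chow replicate 3 (5.85), where Grp was highest too. Vip was listed at 0 in mutant chow replicate 4, where Grp was 35.8, above every control library. In that same library Nms, also among the 8 markers, was 25.8, against 3.15 to 3.93 in control chow. The sum there was 755. Prok2, the prokineticin 2 gene and another of the 8 markers, was lower in mutant than in control chow. It was at least 4.12 in control chow and at most 2.75 in mutant chow, so these groups did not overlap. The share of all genes lower without overlap on chow was not counted, and 2.54% were higher without overlap. Of the 8 markers 6 had a positive log2 difference between the chow groups, with a median of 0.58. Only Prok2 had an unadjusted p under 0.05 there (limma), against 4.34% of all genes tested. The part of this nucleus in the Grp difference was not tested. The summed signal of 8 markers of the dorsomedial, ventromedial and paraventricular nuclei was 204 to 1052 in control chow and 300 to 1936 in mutant chow, which overlapped.

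Arcuate neuron markers were abundant in every library, with summed signals of 3707 to 8000 in control chow, 4308 to 8325 in mutant chow, 2195 to 6542 in control HFD and 3834 to 4455 in mutant HFD, and none of the 10 was listed at 0. The groups also overlapped for the pituitary and pars tuberalis markers, at 556 to 6030 in control chow and 1110 to 2097 in mutant chow. The sum of 6 oligodendrocyte markers overlapped too, at 1244 to 3720 in control chow and 1792 to 5673 in mutant chow. All 6 nevertheless had a positive log2 difference between the chow groups, with a median of 0.65. All 6 had a negative one between the diets in mutants, with a median of -0.65. An unadjusted p under 0.05 was held by 0 of 6 in either, against 4.34% and 5.37% of all genes tested. These markers thus shared the direction of Grp in both comparisons, and their part was not tested. Tanycyte, astrocyte and endothelial marker sums overlapped between the chow groups as well.

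**Figure D2:**
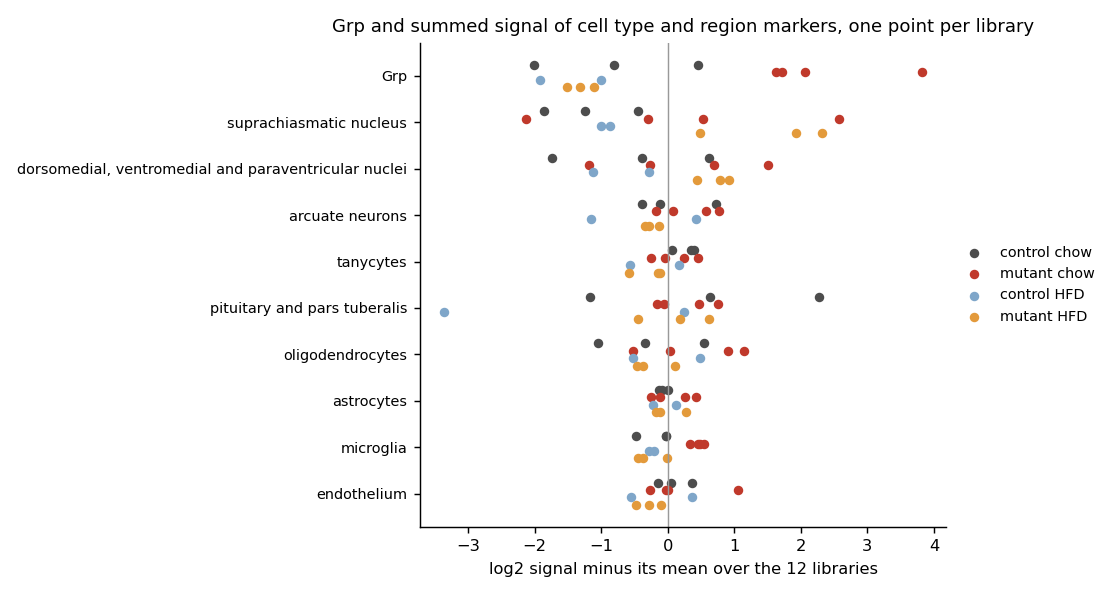
Grp signal and the summed signal of 9 marker lists, as log2 minus the mean over the 12 libraries (horizontal axis), 1 point per library and 1 colour per group. Mutant chow stands apart from all other groups for Grp and for the microglia list (316 to 366 against at most 247), and the suprachiasmatic list is highest in mutant chow replicate 2 (3101), with 729 to 2608 in the libraries labelled mutant HFD.

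Nmb, the neuromedin B gene, was the higher ligand gene in the control libraries and varied widely within groups. Its signal was 13.4, 32.3 and 31.0 in control chow, 44.3, 24.8, 57.8 and 27.6 in mutant chow, 12.1 and 38.5 in control HFD, and 23.8, 7.16 and 26.4 in mutant HFD. The groups overlapped in every comparison, although the highest value was again in mutant chow replicate 3. On chow the means were 25.6 ± 10.6 (SD, n = 3) and 38.6 ± 15.4 (SD, n = 4), a ratio of 1.51. The fitted difference was 0.59 ± 0.51 (SE) on the log2(value + 1) scale, with a 95% confidence interval from -0.51 to 1.70 (limma, Benjamini-Hochberg adjusted p = 0.982). It was 0.20 without control chow replicate 1 and 0.37 without mutant chow replicate 3.

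On HFD the Nmb mean was 19.1 ± 10.4 (SD, n = 3) in mutants, 49.5% of the mutant chow mean. The log2 difference between the diets in mutants was -1.08 ± 0.51 (SE), with an interval from -2.19 to 0.02 and an adjusted p of 0.916. It was -0.52 without mutant HFD replicate 2 and -0.86 without mutant chow replicate 3. In controls the mean was 25.3 ± 18.7 (SD, n = 2) on HFD, 98.9% of the chow mean, and the 2 libraries differed more from each other than the means did. The log2 difference between the genotypes on HFD was -0.36 ± 0.61 (SE, adjusted p = 1) and turned to 0.44 when control HFD replicate 2 was left out.

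The balance of the ligand genes is a measure within each library. Grp made up 13.7%, 26.6% and 13.7% of the summed Grp and Nmb signal in control chow, and 37.4%, 53.1%, 67.7% and 56.5% in mutant chow. It made up 26.1% and 5.54% in control HFD and 12.7%, 35.7% and 10.2% in mutant HFD. Grp exceeded Nmb in 3 of the 4 mutant chow libraries and in 0 of the other 8. The mean share was 18.02% ± 7.47 (SD, n = 3) in control chow and 53.7% ± 12.5 (SD, n = 4) in mutant chow, and these shares contain the values for which Grp was chosen.

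Grpr, the receptor gene for gastrin-releasing peptide, had a low signal throughout. It was 7.51, 0 and 4.98 in control chow, 2.12, 3.39, 2.82 and 2.10 in mutant chow, 4.19 and 3.39 in control HFD, and 2.30, 4.64 and 2.79 in mutant HFD. The gene was listed at 0 in control chow replicate 2, which lay below all mutant libraries, while the other 2 control chow libraries lay above them. In the mutant chow libraries, where Grp lay between 26.5 and 121, Grpr lay between 2.10 and 3.39.

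The log2 difference of Grpr between the chow groups was -0.05 ± 0.59 (SE), with an interval from -1.33 to 1.22 (limma, Benjamini-Hochberg adjusted p = 1). This value rests on the library listed at 0. Without control chow replicate 2 the control mean was 6.24 ± 1.79 (SD, n = 2) against 2.61 ± 0.619 (SD, n = 4) in mutant chow, and the log2 difference was -0.999. With a pseudocount of 0.1 in place of 1 it was 0.76. Without mutant chow replicate 3 it was -0.0863 on chow and 0.24 between the diets in mutants. Between the diets it was 0.21 ± 0.59 (SE, adjusted p = 0.975) in mutants and 0.37 ± 0.70 (SE, adjusted p = 0.998) in controls, where it was -0.58 without control chow replicate 2. No direction can be given for Grpr in either comparison with control chow.

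Nmbr, the neuromedin B receptor gene, was the member other than Grp with the largest difference between the chow groups. Its signal was 2.82, 2.74 and 0.442 in control chow and 10.2, 5.07, 14.4 and 2.47 in mutant chow. On HFD it was 0.790 and 0 in control and 1.67, 4.10 and 2.88 in mutant libraries. Of the 4 mutant chow libraries 3 were above every control chow library, and replicate 4 lay below 2 of the 3 controls. The highest value was in mutant chow replicate 3, as for both ligand genes.

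The Nmbr means on chow were 2.002 ± 1.35 (SD, n = 3) in control and 8.04 ± 5.34 (SD, n = 4) in mutant, a ratio of 4.02, which was 2.95 without replicate 3. The log2 difference was 1.502 ± 0.54 (SE), with an interval from 0.33 to 2.67 (limma, Benjamini-Hochberg adjusted p = 0.982), and 164 of the 15801 genes tested had a larger difference. Without mutant chow replicate 3 it was 1.17. It thus did not pass the threshold of 0.05 over all genes, and it ranged from 1.04 to 2.02 over 18 alternative settings with adjusted p from 0.732 to 1.

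On HFD the Nmbr signal was again higher in the mutant libraries, at 2.88 ± 1.22 (SD, n = 3) against the 2 control values of 0.790 and 0, and these groups did not overlap. Among all genes tested 7.27% were higher in mutants without overlap in that comparison. The log2 difference was 1.49 ± 0.64 (SE), with an interval from 0.09 to 2.89 (limma, Benjamini-Hochberg adjusted p = 1). Its size depends on the pseudocount, since 1 control library is listed at 0, and it was 3.24 with a pseudocount of 0.1. The genotype differences of Nmbr on the 2 diets were close in size, and the interaction was -0.01 ± 0.84 (SE, adjusted p = 1), an error too wide to show that the differences are alike.

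Sums of region markers were read beside Nmbr on HFD as well. The suprachiasmatic marker sum was 729 to 2608 in the libraries labelled mutant HFD against 261 to 288 in control HFD. The sum for the dorsomedial, ventromedial and paraventricular nuclei was 921 to 1294 against 314 to 558. Neither pair of groups overlapped. Of single genes tested, 7.27% were higher in mutants without overlap in that comparison. The suprachiasmatic sum was mostly Avp, at 677 to 2553 in mutant HFD against 195 and 236 in control HFD. Of its 8 markers 4 had a positive log2 difference, with a median of -0.03 over the list. Of the dorsomedial, ventromedial and paraventricular markers 5 of the 7 tested had one, with a median of 0.65. The pituitary and pars tuberalis sums, at 910 to 1904 against 121 to 1468, overlapped, but all 6 measured markers of that list had a positive log2 difference, with a median of 1.38. The part of these regions in the Nmbr difference on HFD was not tested.

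Between the diets in mutants the Nmbr mean on HFD was 35.9% of that on chow, with a log2 difference of -1.05 ± 0.54 (SE), an interval from -2.22 to 0.12 and an adjusted p of 0.916, and it was -0.72 without mutant chow replicate 3. The groups overlapped, as mutant chow replicate 4 (2.47) lay within the range on HFD. In controls the log2 difference was -1.04 ± 0.64 (SE, adjusted p = 0.998), or -0.62 without control HFD replicate 2, and the control chow library at 0.442 lay between the 2 HFD libraries.

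Brs3, the orphan receptor gene, had the narrowest spread of the 5. Its signal was 6.84, 5.88 and 4.84 in control chow, 5.73, 4.30, 2.44 and 5.12 in mutant chow, 3.71 and 2.82 in control HFD, and 5.55, 5.09 and 3.09 in mutant HFD. Mutant chow replicate 3, the highest library for Grp, Nmb and Nmbr, was the lowest of all 12 for Brs3. The chow groups overlapped, with a log2 difference of -0.38 ± 0.32 (SE), an interval from -1.07 to 0.31 and an adjusted p of 0.982, and it was -0.18 without mutant chow replicate 3.

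In controls both HFD libraries were below all 3 chow libraries for Brs3. Their mean of 3.26 ± 0.626 (SD, n = 2) was 55.8% of the chow mean of 5.85 ± 0.998 (SD, n = 3). Of all genes tested 7.76% were lower on HFD without overlap in that comparison, and the log2 difference of -0.68 ± 0.38 (SE), with an interval from -1.51 to 0.14, did not pass the limma test (Benjamini-Hochberg adjusted p = 0.998). All 6 measured pituitary and pars tuberalis markers had a negative log2 difference in that comparison, with a median of -1.72. An unadjusted p under 0.05 was held by 2 of 6, against 3.54% of all genes tested. The median of 6 tanycyte markers was -0.74. None of these passed the adjusted threshold, and their part in the Brs3 difference was not tested. In mutants the Brs3 difference between the diets was 0.06 ± 0.32 (SE, adjusted p = 0.992), and it was negative without mutant chow replicate 3 (-0.14), mutant HFD replicate 1 (-0.0701) or mutant HFD replicate 2 (-0.0176). The interaction of genotype and diet was 0.74 ± 0.50 (SE, adjusted p = 0.999).

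The receptor genes together gave a signal of 8.62 to 17.2 in control chow, 9.70 to 19.7 in mutant chow, 6.21 to 8.69 in control HFD and 8.76 to 13.8 in mutant HFD. These ranges overlapped between the genotypes on chow. On HFD they did not, by a narrow margin (8.69 against 8.76). Of single genes tested, 7.27% were likewise higher in mutants without overlap on HFD. Nmbr was the highest of the 3 in 3 of the 4 mutant chow libraries and in 0 of the other 8. Grpr was the highest in 2 of 3 control chow and 2 of 2 control HFD libraries and in 0 of the 7 mutant libraries. Brs3 was the highest in all 3 libraries labelled mutant HFD, in 1 control chow and in 1 mutant chow library. The mean share of Nmbr in mutants was 48.8% ± 20.7 (SD, n = 4) on chow and 26.7% ± 8.09 (SD, n = 3) on HFD, against 17.5% ± 13.8 (SD, n = 3) in control chow and shares of 9.09% and 0% in the 2 control HFD libraries. With all 3 genes at a low signal, these shares move by much with a small change in any 1 of them.

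**Figure D3:**
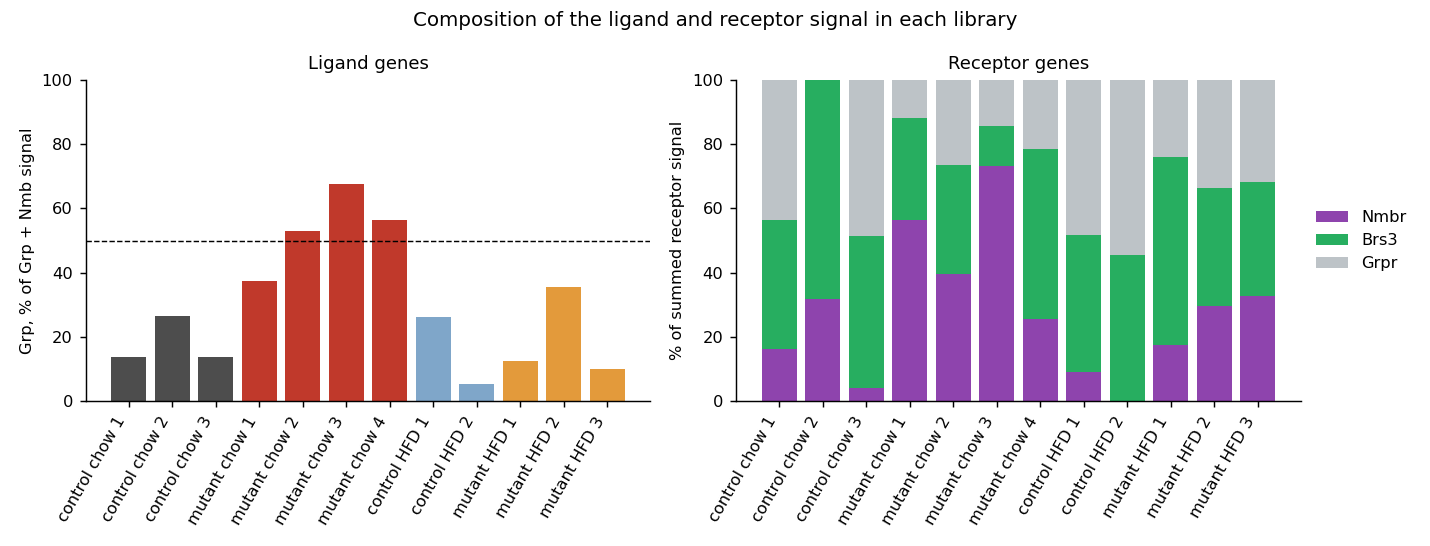
Left, Grp as a percentage of the summed Grp and Nmb signal in each of the 12 libraries (bars, dashed line at equal signal); right, the percentage of the summed receptor signal given by Nmbr, Brs3 and Grpr. Grp exceeds Nmb only in 3 of the 4 mutant chow libraries (53.1% to 67.7%), and Nmbr takes the largest receptor share in 3 of those 4 libraries.

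Over all comparisons, 0 of the 4 members other than Grp passed an adjusted p of 0.05. On chow 3 of the 15801 genes tested passed it (0.019%), as did 3 between the diets in mutants (0.019%), 1 between the genotypes on HFD (0.00633%), and 0 for the diet in controls and for the interaction (0% each). At an unadjusted p under 0.05 there was 1 member on chow, Nmbr, where 4.34% of all genes passed, and 1 between the genotypes on HFD, again Nmbr, where 2.21% passed. There were 0 of 4 for the diet in mutants, 0 of 4 for the diet in controls and 0 of 4 for the interaction, where 5.37%, 3.54% and 3.44% of all genes passed. The comparisons share groups of libraries and are not independent of one another.

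For Grp the fitted log2 differences, which describe the choice and carry no test, were 2.82 between the chow groups, -3.29 between the diets in mutants, 0.11 between the genotypes on HFD and -0.58 between the diets in controls. On chow 10 of the 15801 genes tested had a larger difference by size, and 5 had one between the diets in mutants. Over the 12 fits that each left out 1 library, the chow difference ranged from 2.32, without mutant chow replicate 3, to 3.34, without control chow replicate 2. The difference on HFD ranged from -0.24 to 0.45.

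**Figure D4:**
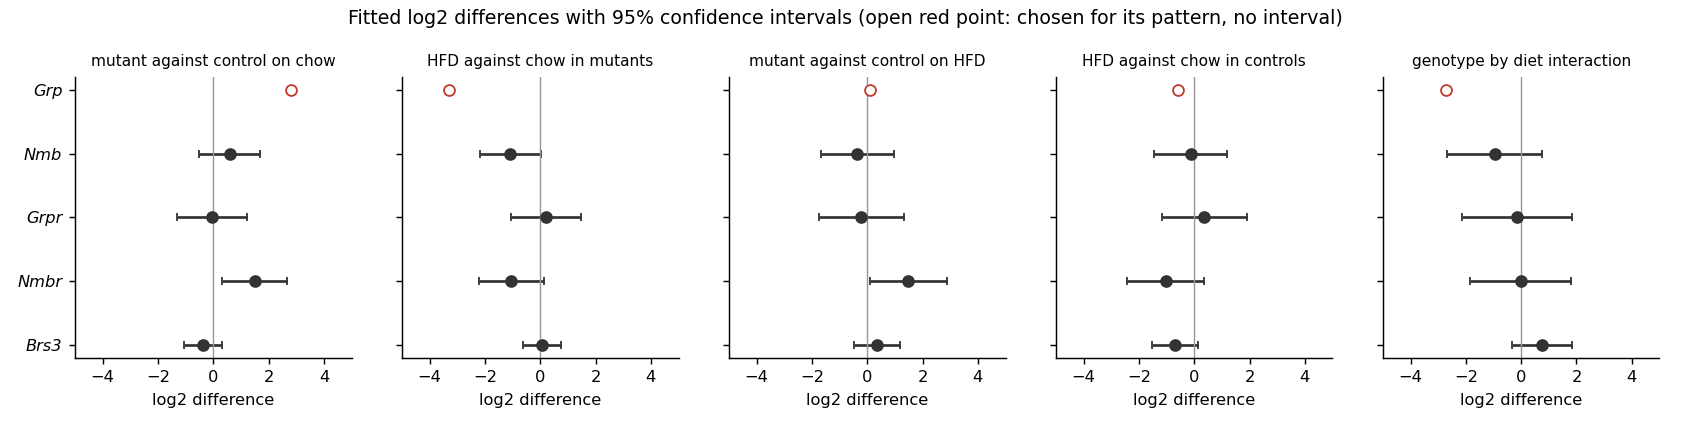
Fitted difference on the log2(value + 1) scale (horizontal axis) for each member in the 5 comparisons, with 95% confidence intervals for Nmb, Grpr, Nmbr and Brs3; the open point marks Grp, which was chosen for its pattern and has no interval. The intervals include 0 except for Nmbr between the genotypes on chow (0.33 to 2.67) and on HFD (0.09 to 2.89).

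Set among other neuropeptide precursors, the 2 ligand genes are of middle to low level in the ARC. Of 44 precursor genes listed, 39 were in the table. By mean signal, a level per gene length, Nmb ranked 22 in control chow and 22 in mutant chow, 21 in control HFD and 24 in mutant HFD. Grp ranked 28 in control chow, 20 in mutant chow, 31 in control HFD and 33 in mutant HFD. In mutant chow it lay between Nts (56.3), the neurotensin gene, and Nucb2 (52.6), the nesfatin precursor gene, and the spread of Grp over its 4 libraries exceeded both gaps. In control chow it lay between Prok2 (7.04) and Nmu (4.34).

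Among the other 38 precursor genes 0 passed the adjusted threshold in any of the 5 comparisons. On chow 3 were higher in mutants and 1 lower at an unadjusted p under 0.05, where 4.34% of all genes tested passed. The median log2 difference was 0.25 against 0.01 over all genes tested. Prok2, the gene for the circadian peptide prokineticin 2, had the largest difference after Grp by size, at -1.62 ± 0.44 (SE, adjusted p = 0.905), with 7.04 ± 2.58 (SD, n = 3) in control and 1.59 ± 0.787 (SD, n = 4) in mutant. Avp had 1.504 ± 0.93 (SE, adjusted p = 0.982), with a mutant chow range from 77.3 to 3051. Between the diets in mutants 2 were higher and 4 lower on HFD at an unadjusted p under 0.05, where 5.37% of all genes passed. The median in that comparison was -0.04 against -0.02 over all genes. The largest there after Grp were Pmch, the melanin-concentrating hormone gene, at 1.78 ± 1.14 (SE, adjusted p = 0.924), and Avp at 1.59 ± 0.93 (SE, adjusted p = 0.924).

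**Figure D5:**
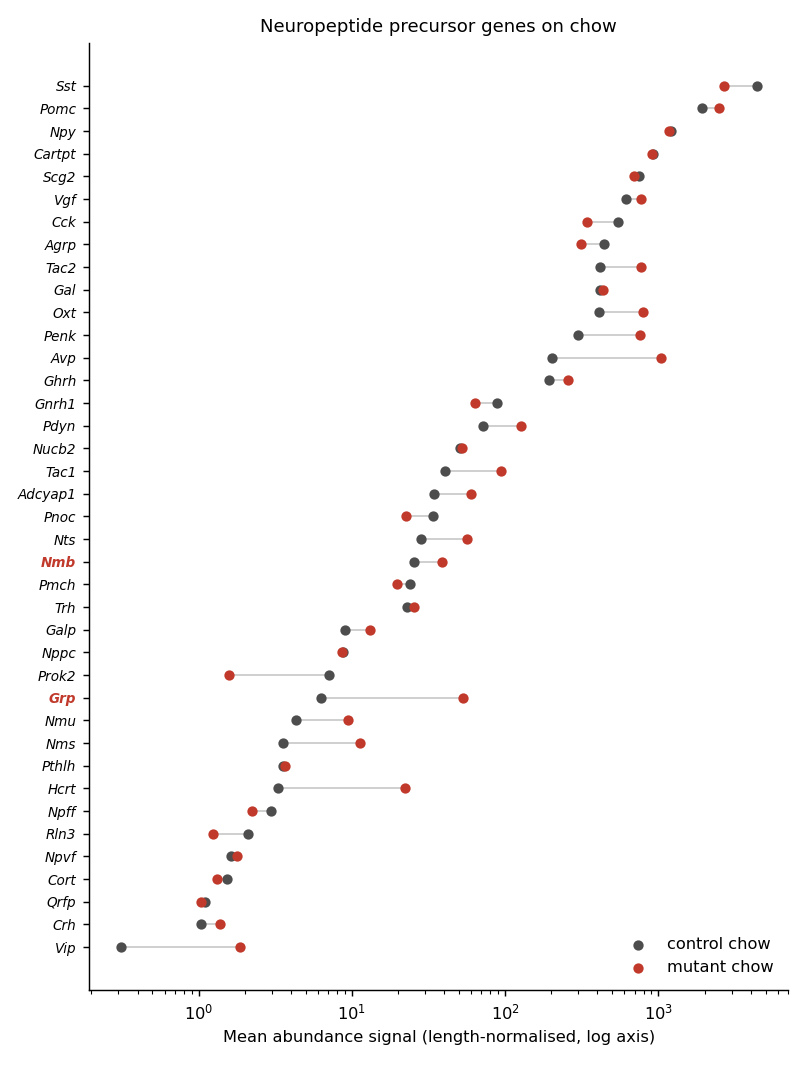
Mean abundance signal (length-normalised, log axis) of 39 neuropeptide precursor genes in control chow (n = 3) and mutant chow (n = 4), ordered by the control mean. Grp moves from rank 28 to rank 20 of the 39, whereas Nmb is at rank 22 in both groups.

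Genes that act downstream of the receptors were read from a list. Of its 23 genes for Gq-coupled signalling (G-protein subunits, phospholipases, calcium release channels and protein kinases C) 0 passed the adjusted threshold in any comparison. On chow 0 passed an unadjusted p under 0.05, where 4.34% of all genes did, with a median log2 difference of 0.06. Plcb2, a phospholipase C gene, had a difference of -0.57 ± 0.49 (SE) and Prkcd, a protein kinase C gene, one of 0.55 ± 0.28 (SE), each with an adjusted p of 0.982. Between the diets in mutants 0 were higher and 2 lower at an unadjusted p under 0.05, where 5.37% of all genes passed. Differences in the list included those of Prkcd (-0.76 ± 0.28, SE, adjusted p = 0.825) and Prkca (0.50 ± 0.27, SE, adjusted p = 0.916). Prkca, higher on HFD, was not one of the 2 lower genes.

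Gastrin-releasing peptide and neuromedin B are cut from their precursors by prohormone convertases and amidated at the C terminus before release, and peptidases break them down outside the cell. Of 8 genes for these steps 0 passed either threshold on chow or between the diets in mutants, and the median log2 differences were 0.08 and -0.10. Of all genes 4.34% and 5.37% passed the unadjusted threshold in these comparisons. On chow the largest were Mme, the gene for the peptidase neprilysin, at 0.37 ± 0.45 (SE), the convertase gene Pcsk1 at 0.36 ± 0.22 (SE) and the convertase inhibitor gene Pcsk1n at -0.32 ± 0.28 (SE). Between the diets in mutants they were Furin at -0.80 ± 0.40 (SE, adjusted p = 0.916), Pcsk1 at -0.37 ± 0.22 (SE) and Cpe, the carboxypeptidase E gene, at 0.17 ± 0.21 (SE).

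The genes most like each member were ranked by the mean absolute difference of standardised log2 values over the 12 libraries, among 15800 other genes. For Grp the nearest 5 were Dennd1c (0.272), Fst (0.313), Usp10 (0.316), Abcf1 (0.323) and Scarf1 (0.323). Penk was at rank 6 and Ccn3 at rank 14, whereas Esr1 was at rank 15797, close to the most unlike. Within the family, Nmbr was at rank 514, Nmb at 1684, Brs3 at 7099 and Grpr at 14890 for likeness to Grp. The order rests in part on mutant chow replicate 3, since 1 of the nearest 5 was kept among them without it.

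The other members had other neighbours. Nmb was nearest to Gm3650, Med25, Nit1, Sult1e1 and Anpep, and Grpr to Plxnc1, Pcdhga7, 1700028P14Rik, Nynrin and Cds2. Nmbr was nearest to Hmcn2 (0.249), Rab26 (0.323), Prox2, BC051142 and Cramp1l, and Fst was at rank 40 for it. Brs3 was nearest to Gm10478, Gm13204, Nufip1, Pla2g3 and Olfr137. No gene was shared between these 5 sets of 5. Without mutant chow replicate 3, 1 of 5 was kept for Nmb, 2 for Grpr, 3 for Nmbr and 3 for Brs3. With so many genes and 12 libraries these are descriptions of the nearest patterns, with no test.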

How the data were processed

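RNA of microdissected ARC was sequenced by the authors, giving 12 libraries. They quantified genes with Kallisto (gene mode, mm10 transcripts) and tested them with Sleuth. The deposited values are an abundance signal per gene, normalised for length and depth near the scale of TPM. The scaling between libraries, versions, annotation, filter and use of strand are not given in the sources used here. Values are not multiples of 1 read, so the depth is unknown and no counting interval is given.

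Genes with a value of at least 1 in at least 2 libraries (15801 of 16640, all 5 members among them) were fitted with limma 3.58.1 in R 4.3.3 on log2(value + 1), with a mean-variance trend and 1 mean per group over all 12 libraries. The pseudocount understates differences of low genes. Tests were two-sided, with Benjamini-Hochberg adjustment over all genes tested at 0.05. Groups came from genotype and diet labels. The labels do not say that libraries came from separate animals, so p-values measure the spread between libraries. Positions are from GENCODE M21 and upstream sequences from RefSeq, which held 4 of the 5 members. The fit was tested on simulated data.

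The members and lists were chosen with earlier results of these data known. Genes named are the members, Esr1, Ccn3, Fst and Penk, list genes with an adjusted p under 0.05 or otherwise the 3 of largest difference in the peptide and signalling lists, markers of lists that moved with a member, and the 5 genes most like each member. The result of 1 gene that this rule names is not reported here. Motifs were chosen with the sequences known. Alternatives were a pseudocount of 0.1, no filter, a mean of at least 5, quantile normalisation, columns rescaled to a common sum, array weights, only the groups compared, and leaving out each library in turn.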

Additional observations from a re-analysis of the deposited data

Results flagged for a closer look

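Grp in mutant chow replicate 3 was 121, while the other 3 mutant chow libraries had 26.5, 28.0 and 35.8. Its gap to the nearest of them was 0.902 of the group's range. Grp was taken for study with this library known, so the gap describes that choice and is no test of it. Nmb, Grpr, Nmbr and Brs3 had gaps of 0.411, 0.444, 0.356 and 0.567 in the same group, none above the limit of 0.829 used for 4 libraries. Chance passes that limit in about 1 of 20 groups.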

How the results depend on the processing

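No paired analysis was possible because the labels give no replicate numbers, and the numbers used here only name libraries. In all 94 counts of members called, which leave out Grp, 0 of Nmb, Grpr, Nmbr and Brs3 passed the threshold. Of 361 alternative values of the differences of Nmb, Grpr, Nmbr and Brs3, 333 kept their direction and side of the threshold and 28 changed sign, none of them past it. With a pseudocount of 0.1, Grpr on chow was 0.76 and the Nmbr interaction 1.22. With columns rescaled to a common sum, Nmb between the diets in controls was 0.0102. With array weights, Grpr between the diets in controls was -0.0726, the Grpr interaction 0.36 and the Nmbr interaction 0.24, and with quantile normalisation the Nmbr interaction was 0.0788. With 1 library left out, Grpr ran from -0.999 to 0.55 on chow, -0.0142 to 0.37 between the diets in mutants, -0.58 to 0.97 between them in controls and -0.76 to 0.79 for the interaction. Brs3 ran from -0.14 to 0.27 between the diets in mutants. Nmb ran from -1.16 to 0.44 between the genotypes on HFD and -0.93 to 0.67 between the diets in controls, and the Nmbr interaction from -0.43 to 0.45. The cause was not tested.

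Counts of all genes called were low and moved. On chow there were 3, with 1 when only the groups compared were fitted and 1 to 4 with 1 library left out. Between the diets in mutants there were 3, with 9 under array weights, 0 with only the groups compared and 0 to 4 with 1 library left out. Between the genotypes on HFD there was 1, with 2 under a pseudocount of 0.1 or with only the groups compared and 1 to 2 with 1 library left out. The interaction gave 0, with 1 under a pseudocount of 0.1 and 0 to 1 with 1 library left out. A mean of at least 5 removed Grpr, Nmbr and Brs3, so they have no value there. Levels near 0 limit what can be said of the receptor genes.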
